A study of Mus musculus with 6 samples.

Results

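The genes described here are 10 immediate early transcription factors of the AP-1, EGR and ATF type, Fos, Fosb, Fosl2, Jun, Junb, Jund, Atf3, Egr1, Egr2 and Maff, chosen by gene symbol from the 55254 symbols of the count table. Their mRNAs were measured by 3′ end sequencing in bone marrow-derived macrophages (BMDMs) of C57BL/6J mice, in 3 control cultures and 3 M-Δx3,4 cultures. Control BMDMs carried hnRNPD fl/fl, in which exons 3 and 4 of the gene of the RNA-binding protein AUF1 are flanked by loxP sites, and M-Δx3,4 BMDMs carried the same alleles with LysMCre, a Cre recombinase driven in the myeloid lineage. All 6 cultures were differentiated for 10 days in medium conditioned by L929 cells and treated with lipopolysaccharide (LPS, 100 ng/ml) for 4 hrs, so no unstimulated macrophages were compared. The labels do not say which animals the cultures came from, so the p-values measure only the spread between these samples, which may be technical.

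AP-1 is a dimer of a Jun protein with a Fos, Jun or ATF protein that binds DNA through a leucine zipper, and small MAF proteins such as MAFF dimerize with related zipper proteins. EGR factors bind DNA through zinc fingers. In macrophages stimulated through Toll-like receptors, MAP kinases induce these genes within minutes, and many of the mRNAs are short-lived. Some of the instability comes from AU-rich elements in their 3′ UTRs, the class of element after which AUF1 (AU-rich element-binding factor 1) is named.

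The 3′ UTRs of the 10 transcripts were searched for the AU-rich pentamer ATTTA and the nonamer TTATTTATT on the sense strand, both in DNA letters. A nonamer contains a pentamer, so both counts include it. All 10 held at least 1 pentamer, as did 69.4% of 9736 tested genes with an annotated 3′ UTR, whose median length was 1204 bases. Fosl2 had 8 pentamers in 4653 bases, and Fos had 4 in 815, Jun 4 in 1233 and Maff 4 in 1221. Atf3 and Egr2 had 3 each, Egr1 and Junb 2 each, and Fosb, with 2145 bases, and Jund, with 533 bases, 1 each. The nonamer occurred in 3 of the 10, Fos, Fosl2 and Maff, and in 7.52% of the tested genes, and Maff was the member that held 2. A match describes the letters of the annotated 3′ UTR and is not a measured binding site.

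Windows of 30 bases from the GRCm38 (mm10) sequence as annotated in GENCODE vM21 are shown for every nonamer, and for the pentamers of Fosb and Junb. Fosb and Junb were the members with an unadjusted p under 0.05 in the comparison of the groups by edgeR, which did not hold after adjustment. A link between the motifs shown and a difference was not tested. Capitals mark the nonamer in the first 4 and the pentamer in the last 3. The Fos window is on the plus strand at chr12:85477103-85477132, the Fosl2 window on the plus strand at chr5:32156871-32156900, and the Maff windows on the plus strand at chr15:79358778-79358807 and chr15:79358977-79359006. The Fosb window is on the minus strand at chr7:19303325-19303354, and the Junb windows are on the minus strand at chr8:84977126-84977155 and chr8:84976923-84976952.
Fos: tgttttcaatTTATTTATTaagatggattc
Fosl2: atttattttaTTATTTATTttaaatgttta
Maff, site 1: ttccacactcTTATTTATTgcacgaatcta
Maff, site 2: ctcccagagtTTATTTATTttctgacttca
Fosb: ccacccccagctATTTAtccctttcctggt
Junb, site 1: atatatttgtgtATTTAacagggaggggag
Junb, site 2: tttattgaatctATTTAagtaaaaaaaaaa
In the Fosl2 window the nonamer is flanked by further A and T runs, whereas the Fosb pentamer lies between runs of C.

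The reads of each member were counted by the authors over its annotated 3′ UTR and, in 7 of the 10, over a further 249 bases downstream. For the 3 intronless genes Jun (chr4:95049034-95050266, minus strand), Junb (chr8:84976910-84977394, minus strand) and Jund (chr8:70700084-70700616, plus strand) the counted region ended with the 3′ UTR. The other regions were chr12:85476459-85477522 for Fos (plus strand), chr7:19302447-19304840 for Fosb (minus), chr5:32153190-32158091 for Fosl2 (plus), chr1:191170047-191171481 for Atf3 (minus), chr10:67540989-67542437 for Egr2 (plus) and chr15:79357856-79359325 for Maff (plus). No counted region of another gene overlapped a region of these genes. The transcript of a gene with the largest mean count stands for it. Transcripts of 1 gene that repeat its counts (5 of Fosb, 3 of Egr2, 3 of Maff, 2 of Egr1 and 2 of Atf3) were taken once, and the other transcripts of Fos, Fosl2 and Atf3 had at most 3 counts in any library.

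The summed counts were 5852374 to 6666525 in the control and 6627536 to 9008878 in the M-Δx3,4 libraries. The targeted gene Hnrnpd had 177.8, 104.2 and 69.6 normalized counts in control and 52.8, 12.6 and 16.0 in M-Δx3,4 BMDMs, which did not overlap. All 9 macrophage markers examined (among them Cd68, Csf1r and Adgre1) had a mean above 20 normalized counts, with a summed level of 15326 to 25376 in control and 15634 to 22858 in M-Δx3,4 libraries. Most of each sum was Ctsd, with 8291.7 to 18924.5 in control and 9490.6 to 17444.5 in M-Δx3,4 libraries, so the sum says little about the other markers. Lyz2, the gene at whose locus LysMCre is inserted, had 1992, 1788 and 2201 normalized counts in control and 1342, 881.7 and 968.2 in M-Δx3,4 libraries, all below the controls. The summed level of 8 neutrophil markers was 242.1 to 606.7 and 394.3 to 553.5, and the sums for B cell, T and NK cell, dendritic cell, fibroblast and erythroid markers did not exceed 51.1 in any library, with all 4 mast cell and basophil markers at 0. The control libraries were less alike than the M-Δx3,4 libraries. Over 4723 genes above 50 normalized counts, control replicates 1 and 3 had the lowest correlation of all 15 pairs of libraries (r = 0.76, across genes, which are not independent), and the M-Δx3,4 libraries correlated at 0.95 with each other. The highest correlations were across the groups. They were 0.971 for control replicate 1 with M-Δx3,4 replicate 3 and 0.965 for control replicate 2 with M-Δx3,4 replicate 2, so the libraries did not sort by group.

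Per length, Junb was the most abundant of the 10 in every library. On the authors' TPM scale, a level per length of counted region, Junb had 529.6 to 1622, Jun 64.0 to 76.2, Jund 21.6 to 53.6 and Atf3 14.6 to 32.7 over the 6 libraries. Egr1 (0.751 to 4.92 TPM) and Fosl2 (0.927 to 2.46 TPM) came next, followed by Fos (0.193 to 0.774), Maff (0.102 to 0.749) and Fosb (0 to 1.52). Egr2 was the lowest, with 0 to 0.0922 TPM. The ranges of Junb and Jun did not overlap, nor did those of Jun and Jund, of Atf3 and Egr1, or of Fosl2 and Fos, whereas Jund overlapped with Atf3, Egr1 with Fosl2, and Fos, Maff and Fosb with each other. On this scale the 3 Jun-type mRNAs and Atf3 were above the other 6 in every library. The counts of Fos, Fosb, Maff and Egr2 were low enough for single reads to matter. In 3′ end sequencing reads come from the ends of transcripts, so dividing by region length can change the order between genes. Without this division Fosl2 had more normalized counts than Egr1 in every library, and Atf3 had more than Jund in most. In control replicate 1 Fosl2 was also above Jund (155.7 and 148.8 normalized counts). Junb was the highest on either scale.

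M-Δx3,4 was compared with control BMDMs, the question of the experiment being which mRNAs depend on intact AUF1s in LPS-treated macrophages. Levels are counts normalized by DESeq2's median of ratios, and differences are log2 fold changes of M-Δx3,4 over control from edgeR's quasi-likelihood test across all 32475 transcripts above the median count in at least 1 library. The threshold was an unadjusted p under 0.05 with a log2 fold change of at least 1 in size. Of the 10 members 9 were tested, all but Egr2. In bulk RNA, fewer cells of a type and less RNA per cell cannot be told apart.

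Of the 9 members tested, 1 (Fosb) passed the threshold, where 3.3% of all transcripts tested did. Fosb exceeded the filter on low counts in M-Δx3,4 replicate 1 alone, the library that carries its difference, so nothing is read from this count. An unadjusted p under 0.05 was reached by 2 (Fosb and Junb), where 4.13% of all transcripts did. Fosb is in this count through the same library, so nothing is read from it either. In 1 of the 9 (Maff) no control library overlapped with an M-Δx3,4 library, which held for 8.88% of all transcripts. Without control replicate 1 this number was 4 (Fos, Fosl2, Junb and Maff), beside 31.4% of all transcripts tested in that setting. Without M-Δx3,4 replicate 1 it was 2 (Atf3 and Maff), beside 17.4%, and without M-Δx3,4 replicate 2 also 2 (Jun and Maff), beside 16.9%. After Benjamini-Hochberg adjustment over all transcripts no member had an adjusted p under 0.05 in edgeR (smallest 0.984), DESeq2 (smallest 1.00) or limma-voom (smallest 0.945). Of the 9, 5 had a higher and 4 a lower fitted level in M-Δx3,4, with a median log2 fold change of 0.03, and the median over all transcripts tested was -0.03. At this number of libraries the members' shares were counts of 1 and 2 genes.

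**Figure D1:**
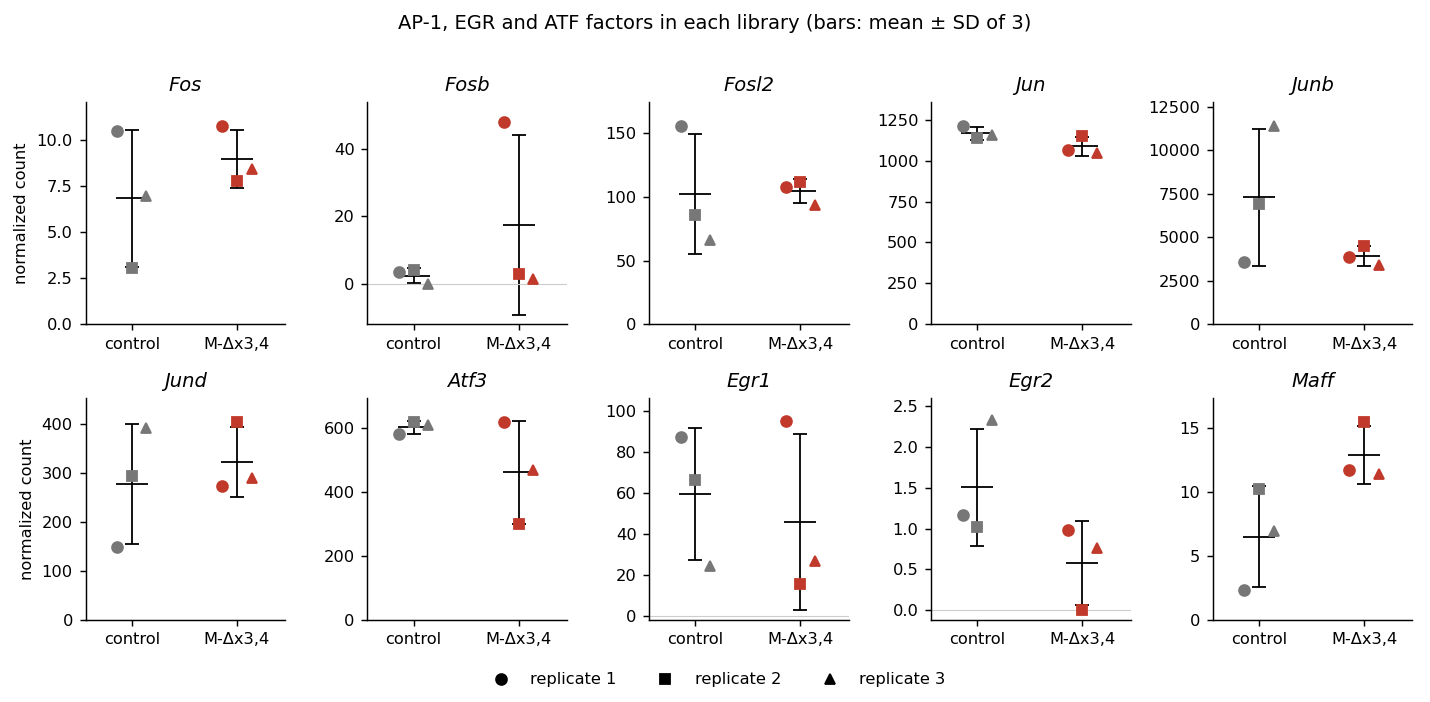
Normalized counts (y axis, linear, a scale for each gene) of the 10 factors in control (grey) and M-Δx3,4 (red) libraries, with symbols for the replicate number and bars for the mean ± SD of 3. Jun and Atf3 controls lie close together, Junb controls spread from 3564 to 11395, and the Fosb mean of M-Δx3,4 rests on replicate 1 at 47.9.

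Junb, a Jun-type subunit that in many settings restrains activation by JUN, had 3564, 6933 and 11395 normalized counts in control and 3871, 4501 and 3400 in M-Δx3,4 libraries. The 3 M-Δx3,4 libraries lay close together, at the level of control replicate 1, and below control replicates 2 and 3. The mean was 7297 ± 3928 (SD, n = 3) in control and 3924 ± 552.3 in M-Δx3,4 BMDMs. The log2 fold change was -0.90 (standard error 0.37, 95% interval -1.68 to -0.11; unadjusted p = 0.0286 and adjusted p = 0.984, edgeR), and the groups overlapped (two-sided exact permutation test p = 0.3). It rested on control replicate 3, without which it was -0.41 (edgeR, unadjusted p = 0.21). Without control replicate 1 it was -1.22 (edgeR, unadjusted p = 0.000543) and without M-Δx3,4 replicate 2 -1.01 (unadjusted p = 0.0422), both past the threshold. Over all transcripts tested 10.4% passed without control replicate 1 and 2.43% without M-Δx3,4 replicate 2. The smallest adjusted p of any member without control replicate 1 was 0.114 (edgeR). Without M-Δx3,4 replicate 1 or 3 the unadjusted p of Junb was 0.0751 or 0.0938.

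Jun, the founding Jun-type subunit, was the steadiest member. It had 1213, 1138 and 1156 normalized counts in control and 1068, 1154 and 1045 in M-Δx3,4 libraries. The values of the 6 libraries spanned a narrow range, with M-Δx3,4 replicate 2 among the controls. The coefficient of variation was 3.37% in control and 5.24% in M-Δx3,4, against 53.8% and 14.1% for Junb. The fitted difference on the log2 scale was -0.10 with a 95% interval of -0.71 to 0.50 (edgeR, unadjusted p = 0.724), so a change of the size of the threshold lay outside the interval in either direction.

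Jund, a Jun-type subunit that is expressed more constitutively than Jun and Junb, had 148.8, 294.2 and 393.3 normalized counts in control and 272.9, 405.9 and 289.6 in M-Δx3,4 libraries. Control replicate 1 was the lowest of all 6 and control replicate 3 close to the highest, so the groups overlapped. Jund had a log2 fold change of 0.21 with a 95% interval of -0.59 to 1.01 (edgeR, unadjusted p = 0.582). It was -0.09 without control replicate 1.

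Junb and Jund shared the order of the control libraries, replicate 1 lowest and replicate 3 highest, so their ratio within a library was compared, a choice made after their values were seen. Jund had 3.8, 3.86 and 3.14 TPM per 100 TPM of Junb in control and 6.42, 8.21 and 7.76 in M-Δx3,4 libraries. Every M-Δx3,4 library was above every control library. The means were 3.6 ± 0.402 and 7.46 ± 0.929 (SD, n = 3), a 2.07-fold difference. Because the ratio was formed after the shared order of the controls was seen, its narrow spread in control follows in part from that choice, and it is given as a description with no test. The ratio of Junb to Jun was 7.47, 15.5 and 25.1 in control and 9.21, 9.92 and 8.27 in M-Δx3,4 libraries, and that of Jund to Jun 0.284, 0.598 and 0.787 in control and 0.592, 0.814 and 0.642 in M-Δx3,4. Both of these overlapped between the groups. The size of each ratio depends on the region lengths, which do not differ between libraries.

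**Figure D2:**
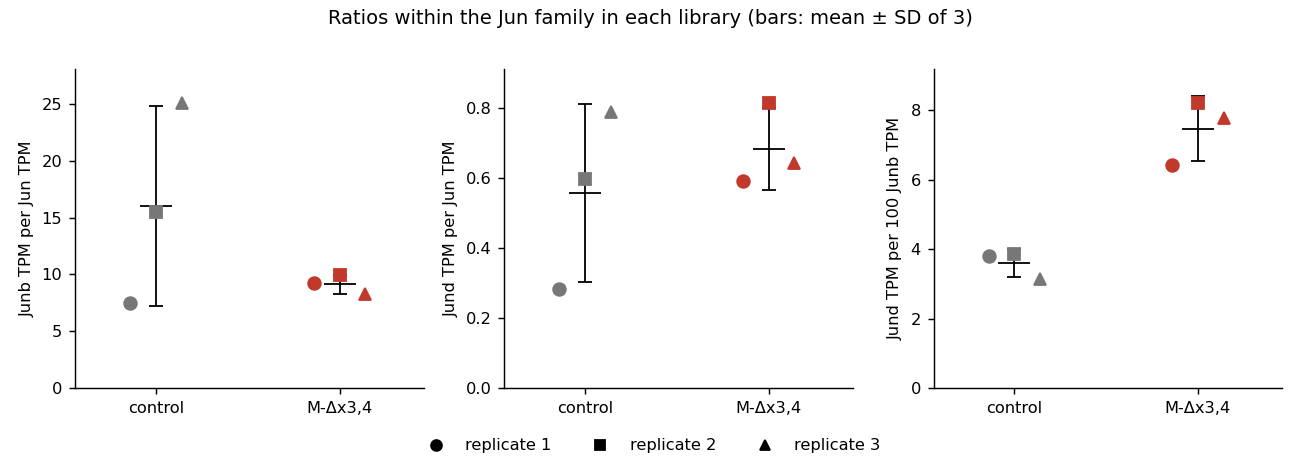
Ratios of the authors' TPM values within the Jun family (y axes, linear from 0) in control (grey) and M-Δx3,4 (red) libraries, with bars for the mean ± SD of 3. Jund per 100 Junb runs from 3.14 to 3.86 in control and from 6.42 to 8.21 in M-Δx3,4, while the other ratios overlap.

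The 3 genes whose normalized counts most resembled those of Junb over the 6 libraries, among 4722 others above a mean of 50, were Slc12a9, Gm14165 and Iqsec2, with Pearson's r of log2 counts above 0.99 for each. Slc12a9, of the family of cation-chloride cotransporters, had 424.2, 692.7 and 1004.7 normalized counts in control and 442.1, 504.0 and 396.6 in M-Δx3,4 libraries. The GC content of the last 500 bases was 56.4% for Slc12a9, 55% for Gm14165, 50.8% for Iqsec2 and 53.6% for Junb. The points are 6 libraries that share depth and base composition effects, and the likeness is a description.

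GC content moved with the difference between control replicates across genes. Genes above 50 normalized counts were divided into 5 bins of about equal size by the GC content of the last 500 bases of the transcript. The median log2 ratio of control replicate 3 to control replicate 1 was -0.996 in the lowest bin (21.6% to 38.4% GC, 948 genes), -0.52, -0.09 and 0.37 in the following bins, and 0.95 in the highest (52.8% to 72.8% GC, 928 genes). The comparison of the groups carried a trend in the other direction, with a median log2 ratio of the M-Δx3,4 to the control mean of 0.25 in the lowest bin, 0.11, 0.00 and -0.11 in the following bins, and -0.26 in the highest, which holds Junb and Jund. The 2 members highest in GC, Jund (56.2%) and Junb (53.6%), had ratios of 1.40 and 1.68, and Fosl2 (40.4%) and Egr1 (38.6%) had ratios of -1.22 and -1.80. Jun (42%) and Atf3 (46.4%) had ratios of -0.07 and 0.07. When the trend over GC was taken out of every library, a setting chosen after seeing the data, Junb had 4300, 6101 and 9145 normalized counts in control and 4062, 4407 and 3883 in M-Δx3,4 libraries, and its log2 fold change was -0.66 (edgeR, unadjusted p = 0.0339). Under the same setting Jund had 193.2 to 283.0 normalized counts in control and 287.9 to 401.0 in M-Δx3,4 libraries, with a log2 fold change of 0.49 (edgeR, unadjusted p = 0.0986). The gap between the groups was 283.0 to 287.9. The share of all transcripts without overlap was not counted in this setting, so nothing is read from the gap.

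**Figure D3:**
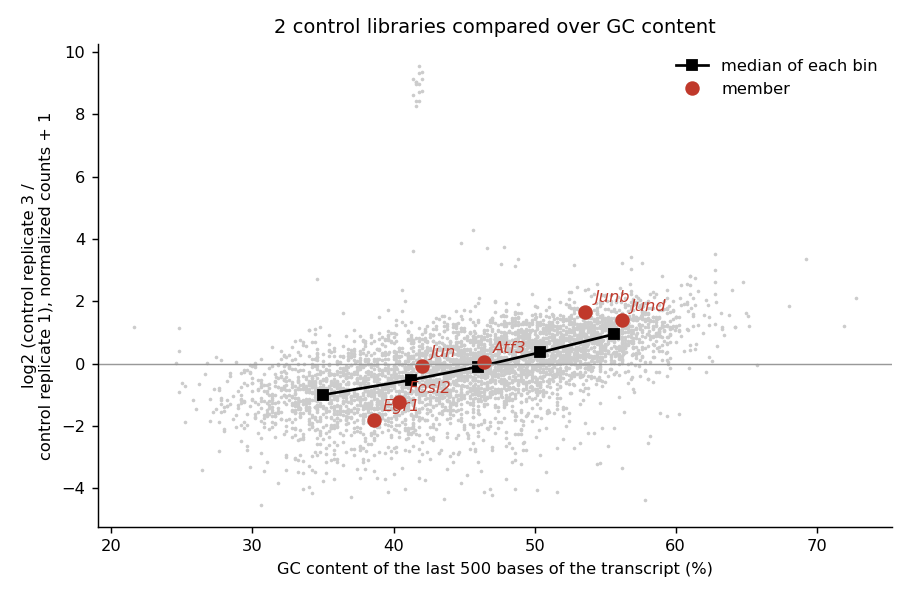
Log2 ratio of the normalized counts plus 1 of control replicate 3 to control replicate 1 (y axis) against the GC content of the last 500 bases of the transcript in percent (x axis) for genes above 50 normalized counts (grey points), with the median of each bin (black) and the members above that level (red). The medians climb from -0.996 to 0.95, with Junb and Jund above the line at its right and Egr1 and Fosl2 below it at its left.

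Fosb, a Fos-type subunit known for its rapid and transient induction, had 3.5, 4.1 and 0 normalized counts in control and 47.9, 2.9 and 1.5 in M-Δx3,4 libraries. As deposited these were 3, 4 and 0 counts against 49, 3 and 2. Outside M-Δx3,4 replicate 1, no library had more than 4 counts. The log2 fold change was 2.69 (standard error 1.16, 95% interval 0.23 to 5.16; unadjusted p = 0.0344 and adjusted p = 0.984, edgeR), and the groups overlapped (two-sided exact permutation test p = 0.6). Without M-Δx3,4 replicate 1 Fosb was below the filter and had no test, and limma-voom gave 1.46 (unadjusted p = 0.287). Without control replicate 3 it was 2.15 (edgeR, unadjusted p = 0.0715). The difference of Fosb is therefore one of a single library.

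By the same measure, the genes most like Fosb were Gm10136, Coro2a and Psma5 (Pearson's r of log2 counts 0.96 each over the 6 libraries, among 4723 genes). Psma5, a subunit of the proteasome, had 774.1, 762.2 and 566.2 normalized counts in control and 1136.6, 849.6 and 650.3 in M-Δx3,4 libraries. M-Δx3,4 replicate 1 was the highest library for all 3 of these genes, which the choice by likeness to Fosb fixes. Apart from Fosb it was also the highest for Fos, Atf3 and Egr1 among the members tested, and it was the highest library for 14.2% of all transcripts tested. The lead over the next library was small in Fos (10.8 against 10.5 normalized counts), Atf3 (620.2 against 619.1) and Egr1 (94.9 against 87.2), so nothing is read from this.

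Egr1, a zinc finger factor induced through serum response elements, had 87.2, 66.4 and 24.4 normalized counts in control and 94.9, 15.5 and 26.7 in M-Δx3,4 libraries (chr18:34863769-34865233, plus strand). Each group held both high and low libraries, and the highest and the lowest of the 6 were both M-Δx3,4. Egr1 had a log2 fold change of -0.38 with a 95% interval of -1.67 to 0.90 (edgeR, unadjusted p = 0.536). Without M-Δx3,4 replicate 1 it was -1.48 (edgeR, unadjusted p = 0.0277), past the threshold, as were 2.83% of all transcripts tested. Without M-Δx3,4 replicate 2 it was 0.02. Egr2 had 1, 1 and 2 counts in control and 1, 0 and 1 in M-Δx3,4 libraries, at or under the floor of 3 counts in every library, so no difference was detectable at this depth.

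Atf3, a stress-induced ATF factor that represses many Toll-like receptor targets, had 580.0, 619.1 and 609.1 normalized counts in control and 620.2, 298.1 and 467.7 in M-Δx3,4 libraries. Its spread was the opposite of that of Junb, with a coefficient of variation of 3.38% in control and 34.9% in M-Δx3,4. M-Δx3,4 replicates 2 and 3 were below every control library and replicate 1 was at the top of them. The log2 fold change was -0.38 with a 95% interval of -1.09 to 0.32 (edgeR, unadjusted p = 0.264), and -0.66 without M-Δx3,4 replicate 1.

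Maff, a small MAF protein that lacks an activation domain, had 2.3, 10.2 and 7.0 normalized counts in control and 11.7, 15.5 and 11.5 in M-Δx3,4 libraries. Of the 9 members tested it was the one whose libraries did not overlap, and 4.1% of all transcripts tested had every M-Δx3,4 library above every control library. In deposited counts it had 2, 10 and 6 against 12, 16 and 15. The mean was 6.5 ± 3.97 (SD, n = 3) in control and 12.9 ± 2.28 in M-Δx3,4 BMDMs. The fitted log2 fold change was 0.96 (standard error 0.65, 95% interval -0.42 to 2.34; edgeR, unadjusted p = 0.158; two-sided exact permutation test p = 0.1, the lowest possible). The gap between the highest control and the lowest M-Δx3,4 library was 10.2 to 11.5 normalized counts. It no longer held with the GC trend removed, where control replicate 2 had 10.7 and M-Δx3,4 replicate 3 had 10.6.

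Fos, the founding Fos-type subunit, had 10.5, 3.1 and 7.0 normalized counts in control and 10.8, 7.8 and 8.4 in M-Δx3,4 libraries. Fosl2 (FRA-2), a Fos-type subunit of the later phase of a response, had 155.7, 85.8 and 66.1 in control and 107.6, 111.7 and 93.997 in M-Δx3,4 libraries. In both genes the M-Δx3,4 libraries lay within or near the range of the controls. The log2 fold change of Fos was 0.40 with a 95% interval of -1.06 to 1.86 (edgeR, unadjusted p = 0.57). Fosl2 differed by 0.03 with an interval of -0.80 to 0.85 (edgeR, unadjusted p = 0.948). The 3 members with a nonamer, Fos, Fosl2 and Maff, had log2 fold changes of 0.40, 0.03 and 0.96, none past the threshold. With the GC trend removed these were 0.12, -0.07 and 0.85. The median was 0.09 over the 732 tested genes with a nonamer and -0.02 over those without, so nothing is read from the 3 values.

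**Figure D4:**
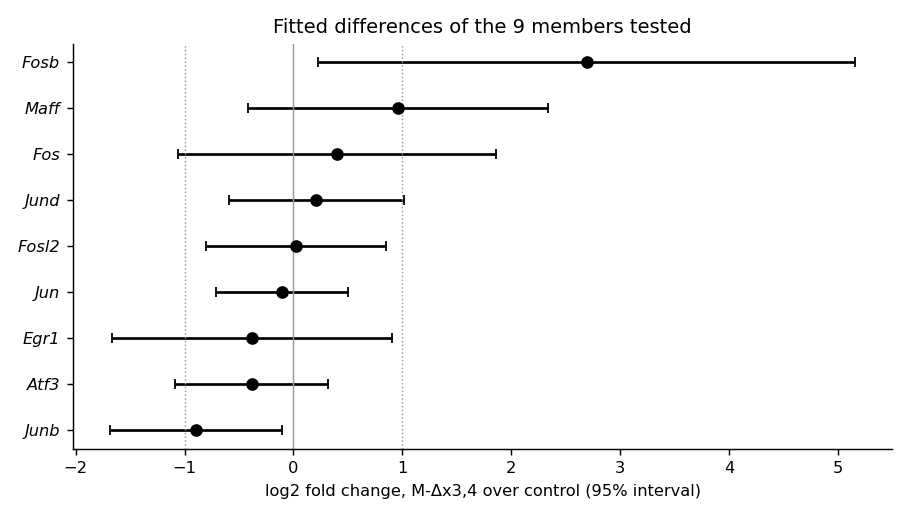
Log2 fold change of M-Δx3,4 over control (x axis) with its 95% interval for the 9 members tested (y axis), from edgeR, with dotted lines at the fold change minimum of 1 in either direction. The intervals of Fosb (0.23 to 5.16) and Junb (-1.68 to -0.11) leave out 0, and those of Jun and Fosl2 lie between the dotted lines.

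**Figure D5:**
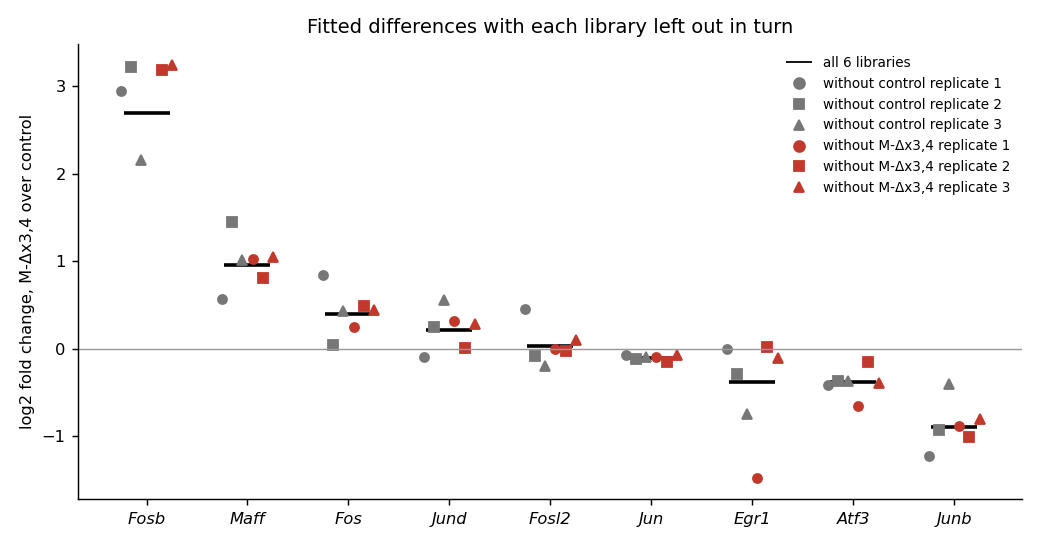
Log2 fold change (y axis) of each member with all 6 libraries (black bar) and with each library left out in turn (grey, control; red, M-Δx3,4; the symbol gives the replicate). Junb runs from -1.22 to -0.41, Egr1 from -1.48 to 0.02 and Jun from -0.15 to -0.07, and Fosb has no value without M-Δx3,4 replicate 1.

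The other genes of the pathway were taken from 7 lists of 93 genes, of which 91 symbols were in the table and 84 genes were tested. Together 2 genes passed the threshold, Klf6 (higher) and Timp1 (lower), and 4 had an unadjusted p under 0.05, 1 higher and 3 lower, beside the background of 3.3% and 4.13%. Of the 84, 42 were higher and 42 lower in M-Δx3,4, and the median log2 fold change was -0.00. Every M-Δx3,4 library was above every control library in 3 of the 84 and below in 6. Over all transcripts tested 8.88% had no overlap, so nothing is read from the single cases named below. Without control replicate 1 the number past the threshold was 15, in a setting where 10.4% of all transcripts tested passed. Without control replicate 2 it was 5, beside 3.19% of all transcripts, and without control replicate 3 it was 1 (Thbs1), beside 2.35%.

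Among 16 other AP-1, CREB and ATF factors, none of the 15 tested passed in the main analysis, and 7 were higher and 8 lower (median log2 fold change -0.26). Batf3, a zipper partner of Jun proteins, had 15.1, 29.6 and 33.6 normalized counts in control and 11.7, 14.6 and 12.2 in M-Δx3,4 libraries, without overlap, and a log2 fold change of -1.02 (edgeR, unadjusted p = 0.0525). Crem, a CREB-type factor, had 5.8, 4.1 and 3.5 in control and 5.9, 12.6 and 14.5 in M-Δx3,4 libraries, also without overlap (log2 fold change 1.29, edgeR, unadjusted p = 0.0842). Atf6b had a log2 fold change of -0.75 and Creb1 of 0.72, neither past an unadjusted p of 0.05 in the main analysis. Batf3 passed with at least 10 counts in every library, 1 transcript per gene, distinct regions summed per gene and without control replicate 1. Crem passed with distinct regions summed per gene, Creb1 without control replicate 1 and Atf6b without M-Δx3,4 replicate 3. With at least 10 counts in every library 265 of all 16947 transcripts tested passed. With 1 transcript per gene 365 of 11180 did, and with distinct regions summed 349 of 11149 genes. Without control replicate 1 10.4% of all transcripts passed, and without M-Δx3,4 replicate 3 2.35%. Fosl1 was the gene of this list that was not tested.

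Of 9 MAF factors and their partners none of the 8 tested passed in the main analysis, and their median log2 fold change was 0.26. Bach1, a repressor that dimerizes with small MAFs, was the highest (0.67), with Mafk at 0.57 and Nfe2l1 at -0.14. The EGR corepressors Nab1 and Nab2 had log2 fold changes of 0.77 and 0.58, and Egr3 and Egr4 were not tested. None of these 5 values reached an unadjusted p under 0.05.

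Upstream of the immediate early genes, serum response factor and its ternary complex factors and the MAP kinase pathway were examined. Elk1, a ternary complex factor phosphorylated by ERK, had 110.4, 188.0 and 222.8 normalized counts in control and 75.3, 64.1 and 122.3 in M-Δx3,4 libraries. Control replicate 1 was under M-Δx3,4 replicate 3, so the groups overlapped (log2 fold change -0.99, standard error 0.39; edgeR, unadjusted p = 0.0233). Its unadjusted p was 0.0668 and 0.0679 without control replicates 2 and 3 and 0.0807 and 0.101 without M-Δx3,4 replicates 1 and 2. It passed the threshold without control replicate 1 (-1.23) and without M-Δx3,4 replicate 3 (-1.32), with the GC trend removed (-1.06), with 1 transcript per gene (-1.04) and with distinct regions summed per gene (-1.04). The shares of all transcripts or genes that passed in these settings were 10.4%, 2.35%, 1104 of 32475, 365 of 11180 and 349 of 11149. Srf had a log2 fold change of -0.65, Elk4 of 0.62 and Elk3 of -0.25, and Mkl1 and Mkl2 were not found under these symbols. None of 14 MAP kinase pathway genes tested passed in the main analysis (median log2 fold change 0.05). They ran from -0.87 for Mapkapk3 and -0.37 for Mapkapk2, kinases downstream of p38, to 0.26 for Map3k7 (TAK1) and 0.35 for Map2k4.

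Among 25 other immediate early genes 24 were tested, with 11 higher, 13 lower and a median log2 fold change of -0.14. Klf6, a Krüppel-type factor, had 955.4, 326.9 and 328.3 normalized counts in control and 717.0, 755.5 and 1818.0 in M-Δx3,4 libraries. M-Δx3,4 replicate 3 stood above the rest and control replicate 1 was above M-Δx3,4 replicates 1 and 2. Klf6 had a log2 fold change of 1.03 (edgeR, unadjusted p = 0.0421), and 0.45 (unadjusted p = 0.355) without M-Δx3,4 replicate 3. Without control replicate 2 it was 0.77 and without control replicate 3 it was 0.79, with unadjusted p-values of 0.162 and 0.104. With the GC trend removed it was 0.82 (unadjusted p = 0.0236), under the fold change minimum, and Elk1, Thbs1 and Timp1 were the list genes past the threshold. Zfp36l1, itself a protein that binds AU-rich elements, had 11.6, 13.3 and 7.0 in control and 23.5, 17.5 and 16.0 in M-Δx3,4 libraries, without overlap (log2 fold change 0.82, edgeR, unadjusted p = 0.132). Gadd45b and Plk3 had the lowest values among the genes tested, -0.775 and -1.05, neither past an unadjusted p of 0.05. In deposited counts Plk3 had only 1, 1 and 8 in control and 2, 1 and 3 in M-Δx3,4 libraries.

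Of 18 genes taken as AP-1 or EGR targets 17 were tested, with 8 higher, 9 lower and a median log2 fold change of -0.02. Timp1, an inhibitor of matrix metalloproteinases, had 17.4, 8.2 and 24.4 normalized counts in control and 2.0, 5.8 and 5.3 in M-Δx3,4 libraries, without overlap. Its log2 fold change was -1.88 (standard error 0.67; edgeR, unadjusted p = 0.0133, 0.076 without control replicate 3 and 0.0524 without M-Δx3,4 replicate 1). Plaur, the urokinase receptor, had 252.2, 129.8 and 213.5 normalized counts in control and at most 108.5 in M-Δx3,4 libraries, which lay close together and below every control library. The log2 fold change was -0.93 (standard error 0.36; edgeR, unadjusted p = 0.0189), under the fold change minimum (-1.17 without control replicate 2), and the unadjusted p was 0.0541, 0.0514 and 0.059 without control replicate 1 and without M-Δx3,4 replicates 1 and 2. Ptgs2 (0.93) and Mmp14 (0.56) had the highest log2 fold changes of this list, with unadjusted p-values of 0.327 and 0.188 from edgeR. Ptgs2 was low, with 5, 1 and 4 deposited counts in control and 6, 2 and 18 in M-Δx3,4 libraries.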

How the data were processed

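QuantSeq 3′ libraries of control and M-Δx3,4 BMDMs under LPS (n = 3 each) were sequenced on an Ion Proton. Per the labels, reads were mapped to mm10 with TopHat2 2.1.1 and Bowtie2 2.3.2. The authors counted reads on 3′ UTR regions of Ensembl transcripts and deposited raw counts per region, and a second table of their own comparison from which only the TPM values were used. Its fold changes and p-values were not used, nor were 18 further per-sample columns. The raw counts of the regions of a transcript were summed here, and a gene was represented by its most highly counted transcript. Counts were normalized by median of ratios, transcripts above the median normalized count (4.89) in at least 1 library were kept, and edgeR 4.0.16 (quasi-likelihood test, Benjamini-Hochberg adjustment, R 4.3.3) was fitted to all of them with the group as the only term. DESeq2 1.42.0 and limma 3.58.1 (voom) served as alternatives, with other factors, filters, features and samples. The edgeR step was tested on simulated data. Exact permutation tests compared 3 with 3 libraries.

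The members and lists were chosen with earlier results of these data known. Named were the members, and from each list the genes with an unadjusted p under 0.05 and the 2 highest and 2 lowest log2 fold changes, Hnrnpd, and the 3 genes most like Junb (highest mean count) and Fosb (largest fold change). Zfp36l1 belongs to the 2 highest of its list. One gene that this rule would name is not reported here. 3′ UTRs, GC content and sequences came from GENCODE vM21. Library totals are given in the results, and intervals cover the spread between 3 libraries per group. Replicate libraries differed by more than sampling noise (chi-square per gene above 19 in each pair), so all were counted.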

Additional observations from a re-analysis of the deposited data

How the results depend on the processing

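Of the 9 members tested, Fos, Fosb, Jun, Junb, Atf3 and Maff kept their direction under every setting in which they were tested. Fosl2 was -0.0716 with the GC trend removed, and with single libraries left out it ran from -0.20 to 0.46, Jund from -0.0894 to 0.55 and Egr1 from -1.48 to 0.0228. The number of members past the threshold was 1 in the main analysis and 0 with limma-voom, filterByExpr, at least 10 counts in every library, the replicate block and an unadjusted p under 0.01, and it ran from 0 to 2 with single libraries left out. Fosb was not tested under either of these filters. The number with an unadjusted p under 0.05 was 2, against 1 with limma-voom, both filters and the replicate block, and 0 to 2 with single libraries left out. Fosb is in the main count here and in that of members past the threshold, so nothing is read from either. The share of all transcripts with an unadjusted p under 0.05 was counted in the main analysis only. Libraries did not overlap in 1 member, against 1 to 4 with single libraries left out, where 16% to 31.4% of all transcripts did not overlap. The number of list genes past the threshold was 2, against 1 with filterByExpr, 4 with 1 transcript per gene, 5 with distinct regions summed per gene, and 1 to 15 with single libraries left out. Of all transcripts tested 1071 of 32475 passed in the main analysis and 471 of 22062 with filterByExpr. With 1 transcript per gene 365 of 11180 passed, and with distinct regions summed per gene 349 of 11149 genes. With single libraries left out 2.35% to 10.4% of all transcripts passed. The cause of the changes in these numbers was not tested. Same-numbered libraries deviated together for number 2 (r across genes 0.54) but not for numbers 1 and 3 (-0.21 and -0.31). Control replicate 1 deviated as much with M-Δx3,4 replicate 3 (r = 0.54). The numbers were therefore not taken as pairs, and the source of these shared deviations was not tested. With the replicate block Fosb was 2.07 (edgeR, unadjusted p = 0.0652) and Junb -0.75 (unadjusted p = 0.0444). Depth limits Fos, Fosb, Egr2 and Maff, with at most 16 counts outside 1 library.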
